A study of Mus musculus with 106 samples.

Results

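Cytochrome P450 genes were described across mouse tissues kept at 10 °C, 22 °C or 34 °C. The members are the genes whose symbol is Cyp followed by a family number, subfamily letters and a gene number, without Cyp26a1, Cyp26b1, Cyp7a1 and Cyp8b1. There were 92 such symbols: 90 among the 21647 genes of the count table of 8 tissues and 89 among the 23393 genes of the count table of 7 tissues, with 87 listed in both. Cyp2c44 of the table of 7 is the older symbol of Cyp2c23 in the table of 8, so the 92 symbols stand for 91 genes, of which 88 are in both tables. Symbols that end in a letter, such as Cyp4a12a and Cyp3a41a, fell outside the pattern.

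RNA was sequenced in bulk from male wild-type C57BL/6J mice, 8 weeks old when exposure began, and every library pooled the RNA of 2 mice. For the cold arm, mice spent 5 days each at 18 °C and 14 °C and then 2 weeks at 10 °C, against mice at 22 °C. For the warm arm, mice from another supplier spent 4 weeks at 34 °C, against their own mice at 22 °C. The labels give an age of 11 weeks for the cold arm's libraries and of 12 weeks for the warm arm's and all quadriceps libraries. The 9 tissues at 10 °C (liver, ileum, interscapular brown fat or iBAT, inguinal fat or ingSAT, perigonadal fat or pgVAT, spleen, brain, hypothalamus, quadriceps) and the 5 at 34 °C (liver, ileum, iBAT, brain, quadriceps) gave 14 comparisons over 84 libraries, with 3 libraries in each group except the 6 quadriceps controls, which the labels do not divide between the arms. By their column names, 3 of these share a prefix with the 10 °C columns and 3 with the 34 °C columns. All 6 were used in both quadriceps comparisons, so these controls may mix mice of both suppliers and libraries made with different kits. The values against the 3 of the same prefix, an alternative chosen after seeing the data, are given beside them. The labels give 34 °C as the treatment of every library, so the temperature came from their titles and the study's methods.

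P450 enzymes are heme proteins that insert an oxygen atom into their substrate. Most sit in the endoplasmic reticulum, where the electrons come from the reductase Por. Families CYP1 to CYP3 act chiefly on drugs, dietary chemicals and hormones, and many of them are induced through the receptors AHR, CAR (Nr1i3) and PXR (Nr1i2). CYP4 enzymes hydroxylate fatty acids and eicosanoids, and higher families hold the enzymes of sterol, bile acid, steroid and vitamin D metabolism. By role the 92 symbols comprised 3 CYP1, 4 CYP2a, 5 CYP2b, 16 CYP2c (15 genes), 9 CYP2d, 7 CYP2j, 8 other CYP2, 7 CYP3, 5 CYP4a, 9 CYP4f, 3 other CYP4, 11 steroid, sterol and bile acid genes, 3 vitamin D genes and 2 of neither kind.

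Library totals ran from 4262403 to 25964912 counts in the table of 8 tissues and from 29545458 to 62880248 in the table of 7. Some libraries carried markers of another cell type, and their values are given beside the results they touch. The clearest was replicate 2 of the cold arm's brain controls, whose 5 hepatocyte markers (Alb, Apoa1, Apoa2, Serpina1c, Ttr) summed to 48783 CPM (counts scaled to 1 common library total), against 789 to 1176 in the other brain libraries of the cold arm and 63397 to 70931 in the liver controls of that arm. Many P450 genes are near-copies of each other. Among the 91 symbols with exon sequence, 58 had at least 90% of their 50-base words found in no other gene, and 3 had fewer than 50%: Cyp2c40 with 39.7%, Cyp2c69 with 45.7% and Cyp2c67 with 47.2%.

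Levels between genes were compared at 22 °C as RPKM, CPM per kilobase of exon, in the table of 8 tissues without the brain library just named. The liver held the most P450 transcripts: 48 members reached 1 RPKM there and 21 reached 100, against 28 and 1 in ileum. Between 17 and 23 members reached 1 RPKM in each of the other tissues, and 27 reached it in none. Of the 63 members that did, 40 had their highest mean in liver, and for 38 of these the liver libraries lay above all libraries of the second tissue.

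**Figure D1:**
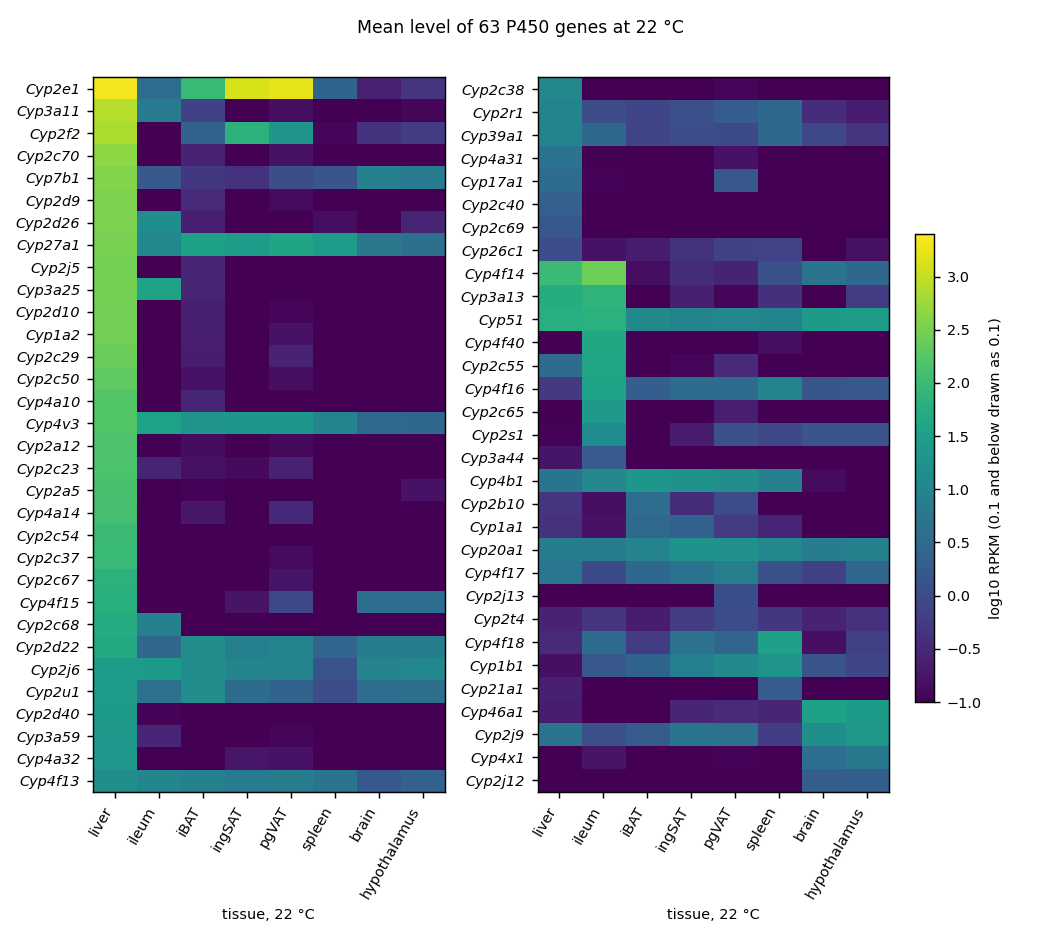
Mean RPKM at 22 °C, on a log10 colour scale, of the 63 P450 genes that reached 1 RPKM in any of 8 tissues (columns, 3 libraries each, 2 in brain). Genes are ordered by the tissue of their highest mean, and 40 of the 63 rows are brightest in liver.

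The 5 highest members in liver were Cyp2e1 at 2216 RPKM, which oxidises ethanol and acetone, Cyp3a11 at 816, the main drug-oxidising CYP3 of mouse liver, Cyp2f2 at 717, Cyp2c70 at 443, which makes the muricholic bile acids of mice, and Cyp7b1 at 385, the oxysterol hydroxylase of the acidic bile acid pathway. Cyp2e1 reached 1698 RPKM in pgVAT, and its libraries in pgVAT and liver overlapped. In ileum the 5 highest were Cyp4f14 at 272 RPKM, a leukotriene hydroxylase, Cyp3a13 at 73.1, Cyp51 at 65.0, the lanosterol demethylase of cholesterol synthesis, Cyp4f40 at 41.7 and Cyp2c55 at 37.9, which hydroxylates arachidonic acid. Cyp4f14 lay higher in ileum than in liver (98.1 RPKM), as did Cyp3a13 (54.0), whereas the Cyp51 libraries of ileum and liver (57.8) overlapped. Cyp46a1, the cholesterol 24-hydroxylase of neurons, was highest in brain at 32.9 RPKM. Cyp4f18 of leukocytes was highest in spleen, also at 32.9 RPKM, and Cyp4b1 had its highest mean in iBAT at 20.2 RPKM, where its libraries overlapped with those of ingSAT (18.4).

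Each comparison used edgeR's quasi-likelihood F-test over all genes above an average of 1 CPM. A gene is called where its fold exceeds 1.5 and its unadjusted p does not exceed 0.05, the study's own limits, and "rose" or "fell" is kept for a Benjamini-Hochberg adjusted p under 0.05 over all genes tested. Values per library are scaled CPM (CPM after TMM scaling), in replicate order, and differences are log2 fold changes with their standard error (SE). In bulk tissue, fewer cells of a type and less RNA per cell cannot be told apart.

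In liver at 10 °C, 55 members were tested and 7 were called, all lower, where 3.28% of all genes tested were called and 2.54% were called lower. None passed the adjusted test in edgeR (16 had an unadjusted p up to 0.05, and DESeq2 put 6 under an adjusted 0.05), nor did any of the 12028 genes (0%). The median log2 fold change was 0.02 over the members and 0.01 over all genes, and the members' share of the library was 2.22% at 22 °C and 2.30% at 10 °C.

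Among the called members, the largest differences were in the CYP4a fatty acid hydroxylases, targets of the fatty acid receptor PPARα. Cyp4a31 measured 21.2, 6.66 and 7.61 at 22 °C and 2.15, 5.85 and 5.62 at 10 °C (log2 fold change -1.37 ± 0.47 SE, adjusted p = 0.182, edgeR). Cyp4a32 measured 53.7, 25.3 and 19.1 against 9.27, 14.5 and 17.9 (-1.23 ± 0.36, adjusted p = 0.14). Every 10 °C library lay below every control for both genes, though control replicate 1 lay well above the other controls, and only 56.2% of the 50-base words of Cyp4a32 are its own, with 32.6% shared with Cyp4a10. Without control replicate 1 the value was -0.65 for Cyp4a31, no longer called, and -0.68 for Cyp4a32, still called, and Cyp4a31 was not called without 10 °C replicate 1 (-1.05). Cyp4a10 (491, 148 and 351 against 106, 321 and 389) and Cyp4a14 (533, 65.9 and 382 against 41.0, 302 and 390), the more abundant PPARα targets, overlapped between groups. All 4 tested CYP4a members had fitted values below 0.

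Among the sterol and steroid enzymes, Cyp39a1, which hydroxylates 24-hydroxycholesterol, measured 31.2, 25.7 and 28.3 at 22 °C and 15.2, 23.5 and 14.6 at 10 °C (-0.68 ± 0.17, adjusted p = 0.121). Cyp7b1 measured 867, 849 and 730 against 657, 590 and 662 (-0.36 ± 0.09, adjusted p = 0.121), under the 1.5-fold limit. The groups did not overlap for either gene. Cyp17a1, the 17-hydroxylase of steroid synthesis, was called lower with overlapping libraries (-0.68 ± 0.26). Cyp51 (-0.25), Cyp27a1, the mitochondrial sterol 27-hydroxylase (0.05), and the vitamin D 25-hydroxylase Cyp2r1 (0.03) were not called. Cyp11a1, Cyp11b1, Cyp11b2, Cyp19a1 and Cyp24a1 had no count in any of these 6 liver libraries.

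Of the drug-metabolising genes, Cyp3a59 (-0.70, adjusted p = 0.16), Cyp2c39 (-0.68) and Cyp2c38 (-0.59) were called lower. The control values of Cyp3a59 were 56.8, 35.3 and 38.7, and the 10 °C values 20.3, 35.8 and 24.9, so the groups overlapped. Cyp2c29, a CAR-induced epoxygenase of the pericentral liver, went the other way: 764, 708 and 871 at 22 °C against 944, 1002 and 1187 at 10 °C, with no overlap (0.41 ± 0.11, adjusted p = 0.13). Cyp1a1, Cyp1a2 and Cyp1b1, the AHR targets, had log2 fold changes of -0.09, -0.09 and 0.17, and Cyp2b10, Cyp2c37, Cyp2c55 and Cyp2a5, targets of CAR, had 0.08, 0.00, 0.24 and -0.51. The PXR target Cyp3a11 measured 3924, 3631 and 4629 against 3511, 4436 and 4182 (-0.01 ± 0.12). All 6 tested CYP2d members had fitted values above 0, with 3 not overlapping and none called. In all, 14 members did not overlap between groups (24.2% of all genes did not). None of the 9 tested electron donors and heme genes and none of the 10 tested regulators was called.

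Replicate 3 of these liver controls carried 112 CPM of brown adipocyte markers, 54.6 of adipocyte markers and 73.9 of skeletal muscle markers, with at most 19.3, 11.0 and 12.8 in the other 5 libraries. Without it 5 members were called, 4 lower and Cyp4b1 higher (0.67), with 5.25% of all genes called, and Cyp4a32 (-1.51, adjusted p = 0.0382, edgeR) and Cyp7b1 (-0.44, adjusted p = 0.035) passed the adjusted test. Leaving out other libraries moved the count between 2, without 10 °C replicate 1, and 10. The hepatocyte markers summed to 63397 to 70931 CPM at 22 °C and 84094 to 87858 at 10 °C, and their part in these differences was not tested.

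In liver at 34 °C, 63 members were tested and 14 were called, 9 higher and 5 lower, where 3.38% of all genes were called, 1.77% higher and 1.61% lower. Cyp46a1 rose, and Cyp7b1 and Cyp3a59 fell: these 3 passed the adjusted test, as did 0.385% of all genes. DESeq2 put 14 under an adjusted 0.05. In all, 20 members did not overlap between groups (17% of all genes), and the members' median was 0.13 against 0.01 over all genes.

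Cyp7b1 (ENSMUSG00000039519, GRCm38 chr3:18071950-18243338, minus strand) measured 322, 336 and 356 at 22 °C and 139, 74.1 and 155 at 34 °C. Every 34 °C library lay far below the lowest control, with a log2 fold change of -1.46 ± 0.23 (adjusted p = 0.0464, edgeR). Cyp46a1 (ENSMUSG00000021259, chr12:108334381-108362234, plus strand) moved in the opposite direction, with 3.07, 3.36 and 2.64 against 10.1, 7.68 and 6.32 (1.42 ± 0.21, adjusted p = 0.0339). The lowest 34 °C library was above the highest control, at a level far below that of Cyp7b1. Both enzymes hydroxylate cholesterol or its oxysterols, and all of their 50-base words are their own. Cyp3a59 (ENSMUSG00000061292, chr5:146079257-146113287, plus strand) measured 50.5, 45.9 and 41.5 against 24.5, 29.5 and 29.7 (-0.71 ± 0.11, adjusted p = 0.0451), and 26.8% of its words are shared with Cyp3a25. Of the other sterol and steroid enzymes, the 21-hydroxylase Cyp21a1 was called lower (1.99, 4.17 and 2.14 against 0.654, 1.09 and 1.47, -1.36 ± 0.39, adjusted p = 0.235), with 21.3% of its words shared with the pseudogene Cyp21a2-ps. Cyp27a1 (-0.06), Cyp17a1 (0.08), Cyp39a1 (0.23) and Cyp51 (-0.28) were not called.

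Of 5 genes induced through CAR, 2 were called higher at 34 °C and 4 lay apart higher, none past the adjusted test. Over all genes, 1.77% were called higher and 17% lay apart in either direction. Cyp2b10 (ENSMUSG00000030483, chr7:25897620-25926624, plus strand), its classical target, measured 1.45, 0.873 and 0.641 at 22 °C and 3.15, 5.72 and 2.86 at 34 °C (1.98 ± 0.38, adjusted p = 0.093). Cyp2c29 measured 880, 746 and 686 against 1214, 1636 and 979 (0.73 ± 0.18, adjusted p = 0.187). The groups did not overlap for these 2 genes, nor for Cyp2c37 (0.42) or Cyp2c55 (0.54). The CAR target Cyp2a5 had 1360, 1135 and 499 against 874, 934 and 1712 (0.24), with overlap. In the CYP2c subfamily, which includes 3 of these 5 genes, 12 of 13 tested members had fitted values above 0, 4 were called higher and 7 lay apart higher, whereas Cyp2c70 lay apart lower (-0.47). Nr1i3, the gene of CAR itself, had 0.58 (adjusted p = 0.239).

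Some P450 genes are known to differ between the livers of male and female mice. Of the 3 male-predominant genes, Cyp7b1 fell, Cyp2u1 was called lower (13.6, 18.9 and 26.5 against 13.7, 9.71 and 8.20, -0.89) and Cyp2d9 was not called (-0.41). Of the 7 tested female-predominant genes, 3 were called higher (Cyp2b9, Cyp2a4 and Cyp2c69), 2 lay apart higher and 6 had fitted values above 0. Over all genes, 1.77% were called higher and 17% lay apart in either direction. Cyp2b9 measured 0.258, 0.136 and 0.123 against 0.339, 4.46 and 2.04 (3.70, adjusted p = 0.163), so 2 of its 3 warm libraries carried most of the difference. Cyp2a4 measured 14.7, 10.7 and 6.08 against 12.9, 16.9 and 134 (2.37). That value rests on 34 °C replicate 3, without which Cyp2a4 was not called, and 36.1% of its words are shared with Cyp2a5. Cyp2c69 (0.91) was called in only 3 of 6 fits that left out 1 library. It too was not called without 34 °C replicate 3, and only 45.7% of its words are its own. In liver at 10 °C, 1 of the 3 male-predominant genes had a fitted value above 0 and 2 below. Of the 4 female-predominant genes tested there, 2 lay above 0 and 2 below. All libraries came from male mice.

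By position in the liver lobule, all 8 pericentral members had fitted values above 0 and Cyp2c29 alone was called, while the periportal Cyp2f2 lay apart lower (1718, 1821 and 1821 against 1424, 1268 and 1537, -0.34 ± 0.08, adjusted p = 0.222). The pericentral list includes the CAR targets Cyp2c29, Cyp2c37 and Cyp2a5, and its median was 0.20 against 0.13 over all members. In liver at 10 °C, 4 of the 8 pericentral members had fitted values above 0 and 4 below, and Cyp2f2 was at -0.12. Cyp1a1 was called higher (0.750, 0.791 and 0.911 against 0.944, 1.81 and 1.52, 0.80 ± 0.31), though in only 2 of 6 fits that left out 1 library, with Cyp1a2 at 0.03. Of the 4 PPARα targets, Cyp4a31 was called lower (-0.82), though in only 3 of 6 fits that left out 1 library. Cyp4a10 (0.18), Cyp4a14 (0.92) and Cyp4a32 (-0.05) were not called, and all 4 genes overlapped between groups. Cyp2c69 (0.91), Cyp2c38 (0.78) and Cyp2c39 (0.68) completed the called members, and Cyp3a11 was at 0.16. The 8 tested electron donors and heme genes all had fitted values above 0, none called, with Por at 523, 330 and 261 against 486, 411 and 861. Fits without any 1 library gave 10 to 16 called members and 0 to 2 past the adjusted test, and Cyp7b1, Cyp46a1, Cyp3a59 and Cyp2b10 were called in 6 of 6 such fits.

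**Figure D2:**
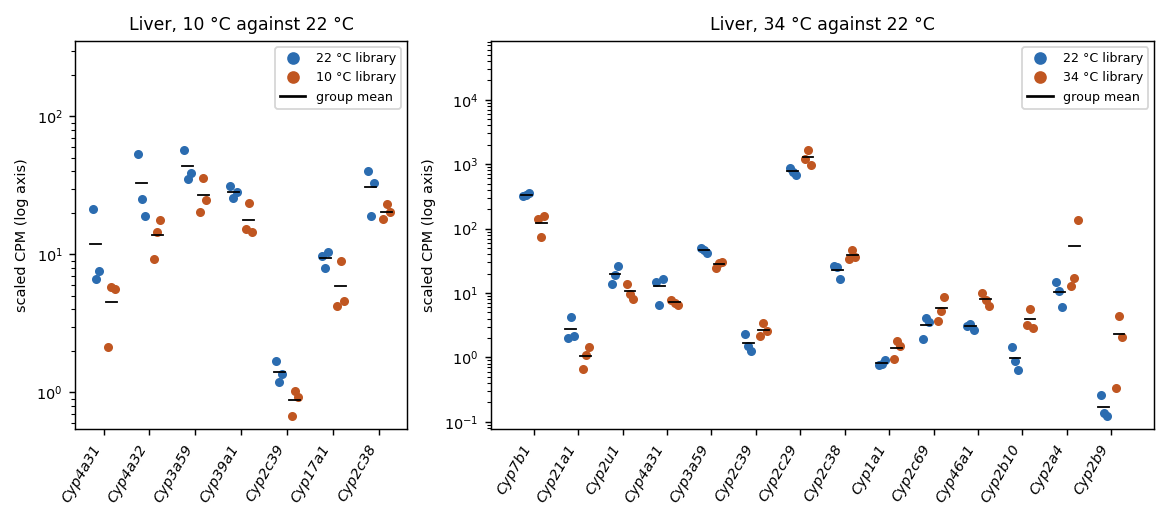
Scaled CPM (log axis) of every P450 gene called in liver at 10 °C (left, 7 genes) or 34 °C (right, 14 genes), ordered by log2 fold change. Each point is a library and each bar a group mean; the 34 °C libraries of Cyp7b1 lie at 139, 74.1 and 155 below controls at 322 to 356, and 1 library sets the Cyp2a4 mean.

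The cold and warm liver controls are different mice in separately made tables, so the arms are set side by side only. Cyp3a59 was lower in both, at -0.70 and -0.71, as were Cyp7b1, at -0.36 and -1.46, and Cyp4a31, at -1.37 and -0.82. With 1 library left out, Cyp4a31 was called in 4 of 6 fits at 10 °C and in 3 of 6 at 34 °C. Cyp3a59, whose groups overlapped at 10 °C, was called in 4 of 6 such fits there and in 6 of 6 at 34 °C. Cyp2c38 and Cyp2c39 were called lower at 10 °C and higher at 34 °C, but at 10 °C each was called in only 2 of 6 fits that left out 1 library, with values from -0.83 to -0.35 for Cyp2c38 and -0.80 to -0.54 for Cyp2c39.

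In ileum at 10 °C, 30 members were tested and 4 were called, 1 higher and 3 lower, where 2.71% of all genes were called, 1.44% higher and 1.26% lower. None passed the adjusted test in edgeR (9 had an unadjusted p up to 0.05, DESeq2 put 5 under an adjusted 0.05), against 0.0639% of all genes. Cyp2c55 (ENSMUSG00000025002, chr19:39007019-39042693, plus strand) measured 51.5, 101 and 70.5 at 22 °C and 9.67, 32.5 and 17.6 at 10 °C, with no overlap (-1.91 ± 0.43, adjusted p = 0.119). Cyp4b1, a fatty acid and xenobiotic hydroxylase, measured 21.2, 25.7 and 24.7 against 41.3, 55.8 and 35.4, with no overlap (0.88 ± 0.17, adjusted p = 0.096). Both were called in 6 of 6 fits that left out 1 library. Cyp3a25 (49.1, 73.0 and 89.4 against 29.1, 55.1 and 42.7, -0.75) and Cyp4f17 (-0.59) were called in 2 of 6.

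Cyp51 measured 321, 262 and 260 at 22 °C and 362, 367 and 366 at 10 °C (0.37 ± 0.09, adjusted p = 0.137), and Cyp4f14 measured 621, 617 and 698 against 805, 887 and 734 (0.32). Neither overlapped between groups, nor did 7 other members, 9 of 30 in all (23.5% of all genes). Cyp3a11 (-0.45), Cyp1b1 (0.08), Cyp7b1 (-0.18), Cyp27a1 (0.21), Cyp39a1 (0.07) and Cyp2r1 (0.41) were not called. The CYP2a, CYP2b and CYP4a subfamilies had no member above the limit on low counts.

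In ileum at 34 °C, 32 members were tested and 11 were called, all higher, where 2.83% of all genes were called and 1.57% were called higher. None passed the adjusted test (12 had an unadjusted p up to 0.05, and DESeq2 put 1 under an adjusted 0.05), and neither did any of the 13020 genes (0%). Cyp2b10 measured 5.15, 3.64 and 1.96 at 22 °C and 4.67, 208 and 35.4 at 34 °C (4.54 ± 1.31, adjusted p = 0.594). Warm replicate 1 lay among the controls, and replicate 2 was far above replicate 3. Cyp3a11 measured 165, 173 and 115 against 209, 404 and 425, with no overlap (1.21 ± 0.30). Cyp2c44, an epoxygenase, measured 0.756, 0.718 and 0.788 against 1.31, 2.64 and 1.91, with no overlap (1.39). Cyp4b1 measured 80.5, 102 and 64.1 against 107, 186 and 155, again with no overlap (0.88), as at 10 °C.

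The other called members were highest in 34 °C replicate 2. Cyp2c66 measured 3.31, 4.67 and 2.63 at 22 °C against 3.39, 27.8 and 9.02 (1.94), Cyp2j6 measured 76.0, 91.7 and 81.4 against 89.0, 297 and 160 (1.15), and Cyp4v3, a fatty acid hydroxylase, measured 268, 285 and 249 against 266, 949 and 423 (1.05). Cyp2j9 (1.57), Cyp3a13 (0.80), Cyp2d26 (0.67) and Cyp2c68 (0.60) completed the 11. That library carried 2777 CPM of 5 markers of the proximal small intestine (Gata4, Onecut2, Lct, Fabp1, Cybrd1), against 14.8 to 43.5 in the controls and 21 and 103 in the other warm libraries, and its distal markers were lowest, at 5431 CPM against 8088 to 12342. The part of this difference along the intestine was not tested. Without replicate 2, 5 members were called, all higher: Cyp2b10 (2.48), Cyp2c44 (1.10), Cyp3a11 (1.07), Cyp4b1 (0.68) and Cyp2c55 (0.66), with 0.999% of all genes called and an adjusted p of 0.928 for each.

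Among members that were not called, Cyp51 lay apart lower (261, 260 and 250 against 229, 155 and 210, -0.36 ± 0.14) and Cyp3a44 lay apart lower (-1.15), while 4 of the called members lay apart higher, so 6 did not overlap (13.7% of all genes). Cyp1b1 (0.14), Cyp27a1 (0.34), Cyp39a1 (-0.08) and Cyp2c55 (0.31) were not called. Nr1i3 measured 1.94, 2.54 and 1.60 against 3.88, 44.4 and 7.80 (3.23), highest in the same library as Cyp2b10.

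**Figure D3:**
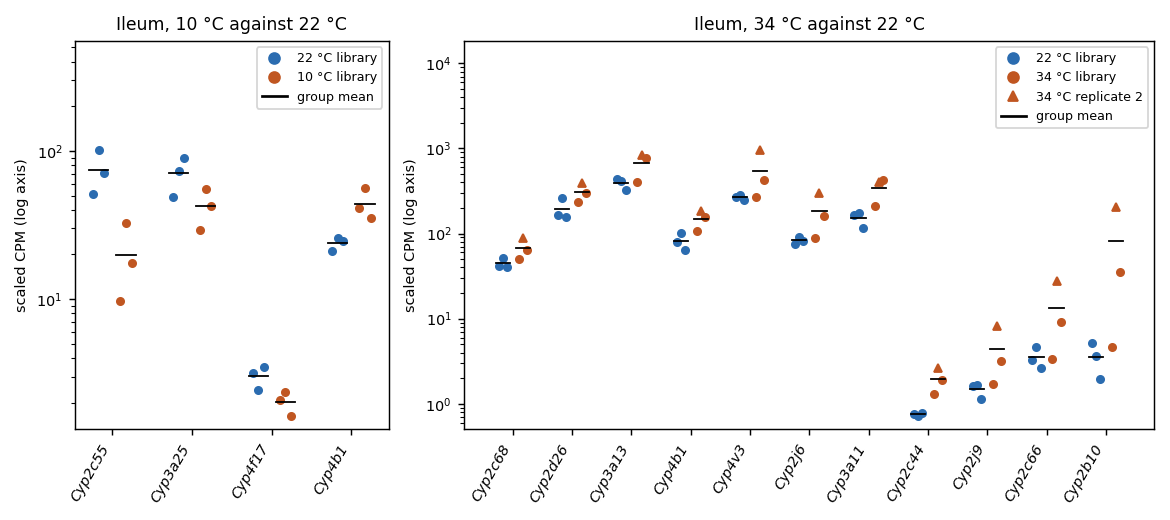
Scaled CPM (log axis) of every P450 gene called in ileum at 10 °C (left, 4 genes) or 34 °C (right, 11 genes), ordered by log2 fold change, with a bar at each group mean. Triangles are 34 °C replicate 2, the library with 2777 CPM of proximal intestine markers, which reached 208 for Cyp2b10.

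Whether the change differed between ileum and liver was tested as an interaction within each arm. No member passed an adjusted p under 0.05 at 10 °C (0 of 56, 0.0503% of all genes, 4 at an unadjusted p up to 0.05, 1 in DESeq2) or at 34 °C (0 of 66, 0.0154% of all genes, 10 at an unadjusted p up to 0.05, 2 in DESeq2). The members tested include some nearly absent from ileum, for which the test could not show a difference. Examples are Cyp1a2 at 10 °C (SE 134) and Cyp4a14 at 10 °C and 34 °C (SE 7557 and 3843). The lowest p at 10 °C was that of Cyp2c55, with ileum minus liver at -2.14 (adjusted p = 0.172, edgeR), and at 34 °C Cyp3a59 had 0.99 (adjusted p = 0.296) and Cyp7b1 had 1.72.

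Outside the liver, Cyp51 (ENSMUSG00000001467, chr5:4081145-4104746, minus strand), whose transcription is known to follow sterol depletion through SREBP, was called higher at 10 °C in iBAT, ingSAT, pgVAT and quadriceps. Cyp1a1 (ENSMUSG00000032315, chr9:57687928-57703824, plus strand), a target of AHR, rose in iBAT at 10 °C and fell there at 34 °C. The 250 bases before their start sites are printed from RefSeq on GRCm38.p6, on the strand of the gene. Both genes changed in more than 1 comparison, as did others, such as Cyp2u1, whose windows are not printed. The RefSeq starts lie inside the GENCODE gene intervals given above, so each window overlaps its interval. Capitals in the first mark GCGTG, the core of the dioxin response element, and TATAAA, and capitals in the second mark CACCTCA, the core of the sterol response element described for CYP51, and CCAAT. Each window was marked only for its own words, and the Cyp51 window also holds GCGTG, unmarked, shortly after CACCTCA.
Cyp1a1, chr9:57697363-57697612, plus strand: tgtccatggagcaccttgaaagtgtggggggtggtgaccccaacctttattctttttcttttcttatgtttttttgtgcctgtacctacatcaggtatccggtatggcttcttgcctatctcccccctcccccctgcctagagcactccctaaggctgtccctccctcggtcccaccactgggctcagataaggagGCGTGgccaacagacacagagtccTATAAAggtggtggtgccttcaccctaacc
Cyp51, chr5:4104698-4104947, minus strand: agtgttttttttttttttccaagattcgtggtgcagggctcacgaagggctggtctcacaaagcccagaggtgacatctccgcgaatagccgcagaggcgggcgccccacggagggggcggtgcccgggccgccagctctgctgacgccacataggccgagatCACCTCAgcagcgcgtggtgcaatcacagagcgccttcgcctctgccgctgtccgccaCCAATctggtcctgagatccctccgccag

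GCGTG ends 50 bases before the Cyp1a1 start, and CACCTCA ends 81 bases before the Cyp51 start. On either strand, GCGTG occurred in 28.2% of all 32851 promoter windows of this length and in 17 of the 81 windows of the 71 members that had one. CACCTCA occurred in 3.95% of all windows and in 2 of the 81. TATAAA was in 12.4% of all windows and 26 of the 81, and CCAAT in 33.8% and 36 of the 81. A letter match is a description and no evidence of binding.

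In iBAT at 10 °C, 21 members were tested, and 5 were called, 4 higher and 1 lower (13.3% of all genes, 6.03% higher and 7.25% lower), all of which passed the adjusted test (11.4% of all genes). Cyp51 rose from 59.2, 48.9 and 37.2 to 140, 132 and 138 (1.49 ± 0.17, adjusted p = 0.00117), and Cyp1a1 rose from 11.2, 8.32 and 6.10 to 23, 37.8 and 27 (1.78 ± 0.25, adjusted p = 0.00355). Cyp2d22 (0.70, adjusted p = 0.00385) and Cyp2u1 (0.62, adjusted p = 0.0312) also rose. The groups did not overlap for these 4 genes. Skeletal muscle markers summed to 5833 to 8996 CPM in the controls and 2118 to 4226 at 10 °C, and their part was not tested.

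Cyp3a11 fell in iBAT, from 2.46, 3.74 and 4.22 to 0 in all 3 libraries, at least 65.0-fold lower against a floor of 3 counts over the group (adjusted p = 0.000952). The hepatocyte markers moved with it: they summed to 50.7, 59.3 and 85.1 CPM at 22 °C and 3.28, 2.32 and 2.12 at 10 °C. Per 1000 CPM of hepatocyte markers, Cyp3a11 was at 51.1 to 65.2 CPM in the 22 °C iBAT libraries and at 55.3 to 66.9 in the liver controls of the cold arm. The part of hepatocyte transcripts in the Cyp3a11 values was not tested.

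In iBAT at 34 °C, 18 members were tested, 4 were called, 3 higher and 1 lower (19.4% of all genes, 12.2% higher and 7.2% lower), and 5 passed the adjusted test (28.9% of all genes). Cyp1a1 fell from 11.0, 11.6 and 6.76 to 1.96, 0.980 and 3.97 (-2.08, adjusted p = 0.0196). Cyp2e1 rose from 125, 116 and 103 to 267, 177 and 415 (1.33, adjusted p = 0.0143), as did Cyp2f2 (1.63, adjusted p = 0.0214), Cyp27a1 (0.63, adjusted p = 0.0159) and, under the 1.5-fold limit, Cyp4f16 (0.45, adjusted p = 0.0273). Cyp51 was at -0.18. Scaling moved the median of all genes by 0.30 against library size alone, and the summed brown adipocyte markers went from 8032 to 11069 CPM at 22 °C to 4685 to 5716 at 34 °C, whose part was not tested.

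In ingSAT at 10 °C, 28 members were tested, 6 were called, 4 higher and 2 lower (16.3% of all genes, 7.2% higher and 9.14% lower), and 3 passed the adjusted test (7.51% of all genes). Cyp51 rose from 61.4, 42.7 and 25.8 to 182, 111 and 110 (1.64, adjusted p = 0.038), Cyp2u1 rose from 15.6, 24.7 and 16.8 to 39.7, 34.6 and 37.2 (0.97, adjusted p = 0.0312), and Cyp1b1 fell from 53.3, 49.1 and 37.4 to 30.03, 29.5 and 26.6 (-0.69, adjusted p = 0.0449). These 3 did not overlap between groups. Cyp2e1 measured 2963, 4387 and 1570 against 1232, 1018 and 957 (-1.47, adjusted p = 0.0581), and Cyp2b10 measured 0.953, 1.28 and 0.132 against 6.04, 5.97 and 3.61 (2.73, adjusted p = 0.0523). Cyp2r1 was also called higher (0.97), in 4 of 6 fits that left out 1 library. Leaving out 1 library gave 0 to 6 members past the adjusted test. The reductase Por fell (-1.03, adjusted p = 0.0387). Brown adipocyte markers summed to 64.9 to 113 CPM at 22 °C and 1586 to 2332 at 10 °C, and their part was not tested.

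In pgVAT at 10 °C, 4 of 31 tested members were called, 2 higher and 2 lower (7.96% of all genes, 4.49% higher and 3.47% lower), and none passed the adjusted test (0% of all genes; 4 members at an unadjusted p up to 0.05, 1 past the adjusted test in DESeq2). Cyp51 measured 67.3, 46.1 and 29.9 against 131, 153 and 171 (1.63 ± 0.32, adjusted p = 0.593), Cyp39a1 was called higher (0.99), and Cyp4v3 (-0.73) and Cyp27a1 (-0.59) were called lower. With 1 library left out, Cyp51 was called in 6 of 6 fits, Cyp39a1 in 1 of 6, and Cyp4v3 and Cyp27a1 in 2 of 6 each. Epididymis markers summed to 2654, 829 and 640 CPM at 22 °C and 17294, 2.3 and 19972 at 10 °C. Cyp4f15 measured 0.914, 2.78 and 2.24 against 22.4, 0 and 15.6, and like Cyp17a1 and Cyp2j13 it was lowest in the 10 °C library low in these markers and highest in the other 10 °C libraries. Without that library, 10 °C replicate 2, 11 members were called (23.4% of all genes) and Cyp4f15 (3.28), Cyp17a1 (2.27), Cyp2j13 (1.88) and Cyp51 (1.60) passed the adjusted test.

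In quadriceps at 10 °C, 2 of 18 tested members were called, both higher (3.32% of all genes, 2.68% higher), and none passed the adjusted test (0.338% of all genes; 3 members at an unadjusted p up to 0.05, 3 past the adjusted test in DESeq2). Cyp51 ranged from 4.36 to 6.92 with a median of 6.24 over the 6 controls and measured 13.4, 13.7 and 7.92 at 10 °C (0.997, adjusted p = 0.0681). Cyp2f2 ranged from 0.534 to 2.76 with a median of 2.03 and measured 5.54, 11.8 and 4.56 (1.91, adjusted p = 0.0832). Neither overlapped with the controls. Against the 3 controls of the same prefix, 3 members were called (3.83% of all genes), none past the adjusted test: Cyp51 (1.05), Cyp2f2 (1.59) and Cyp4v3 (1.01). Brown adipocyte markers were at 40.1 to 187 CPM in the 10 °C libraries and at 3.15 to 26.5 in the controls, and their part was not tested. At 34 °C, 3 of 18 were called, 1 lower and 2 higher (1.25% of all genes, 0.836% lower and 0.41% higher), with none past the adjusted test (5 at an unadjusted p up to 0.05, 0 in DESeq2): Cyp51 lower at 4.19, 3.56 and 3.59 (-0.60, adjusted p = 0.714), and Cyp1a1 (1.06) and Cyp4b1 (0.59) higher. Against the controls of the same prefix the same 3 were called (1.21% of all genes), at -0.64, 1.12 and 0.60, and Cyp1a1 was at 0.54, not called, without 34 °C replicate 3.

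**Figure D4:**
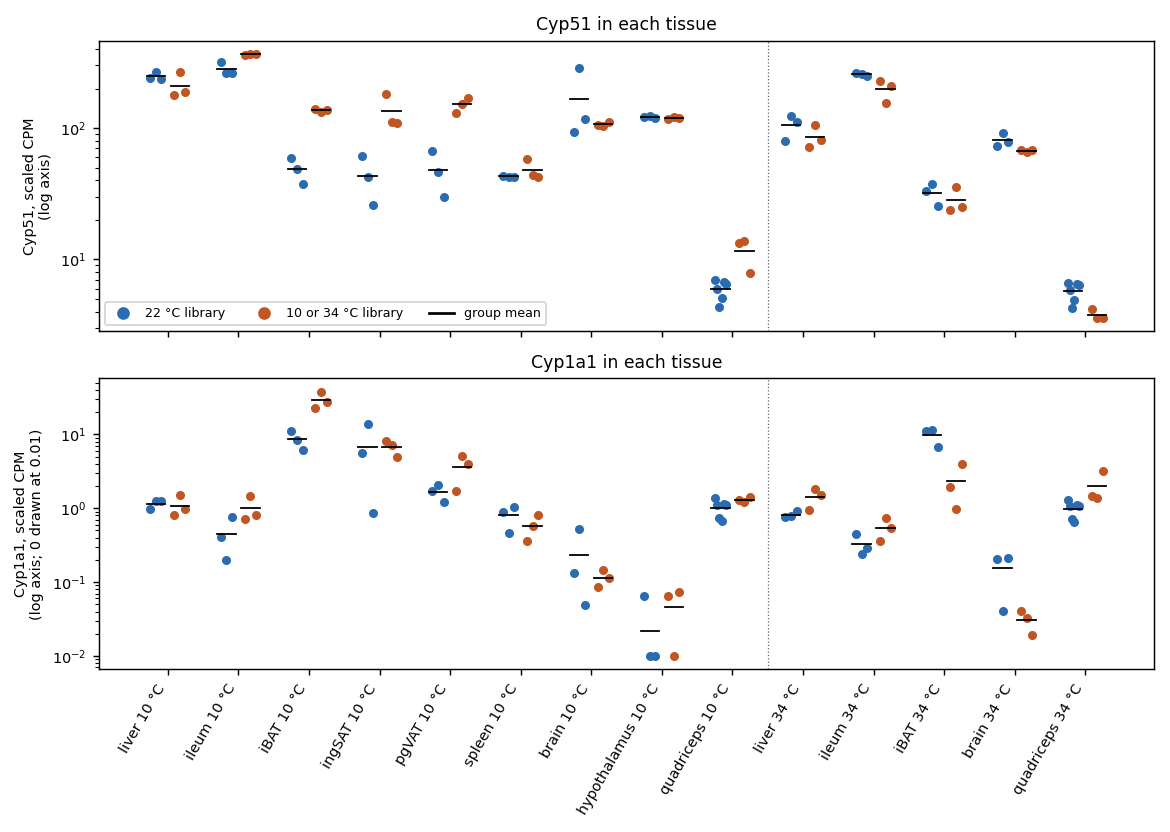
Scaled CPM (log axes) of Cyp51 (top) and Cyp1a1 (bottom) in each of 14 comparisons, 10 °C left and 34 °C right of the dotted line. Points are libraries and bars group means; Cyp51 at 10 °C lies above its controls in iBAT, ingSAT, pgVAT, quadriceps and ileum, and Cyp1a1 in iBAT lies above them at 10 °C and below them at 34 °C.

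In spleen at 10 °C, 2 of 27 tested members were called (2.68% of all genes, 0.638% higher), Cyp2t4 (0.76) and Cyp4f37 (0.69), both higher. None passed the adjusted test (0.0779% of all genes; 5 members at an unadjusted p up to 0.05, 0 past the adjusted test in DESeq2). Fitted values of 22 of the 27 were above 0. In hypothalamus at 10 °C, 4 of 27 were called, 3 higher and 1 lower (0.578% of all genes, 0.399% higher and 0.179% lower), with none past the adjusted test in edgeR or DESeq2: Cyp2e1, Cyp3a11 and Cyp2t4 (0.82) higher and Cyp2j12 (-0.60) lower. Cyp2e1 measured 0.720, 0.503 and 1.85 against 2.09, 0.441 and 10.4, and Cyp3a11 measured 0.131, 0.126 and 1.56 against 0.522, 0.378 and 9.99. Both were highest in 10 °C replicate 3, where hepatocyte markers summed to 275 CPM against 39.0 to 107 in the other libraries. Without it 2 were called (0.483% of all genes), Cyp2t4 (0.92) and Cyp3a13 (-1.07).

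In brain at 10 °C, 19 of 51 tested members were called, all lower (2.71% of all genes, 2.44% lower), with none past the adjusted test in edgeR or DESeq2. Among those called, the largest log2 fold changes were those of Cyp2c70 (-12.6), Cyp3a11 (-12.0) and Cyp2c29 (-11.6). Cyp2e1 measured 0.334, 4305 and 0.684 in the controls and 0.90, 0.822 and 1.15 at 10 °C, and Cyp3a11 measured 0.200, 3840 and 0.195 against 0.343, 0.339 and 0.230. The high value was always that of control replicate 2, the library with 48783 CPM of hepatocyte markers. Its summed P450 genes were at 14561 CPM, against 476 to 506 in the other brain libraries of the cold arm, and Cyp46a1 was lowest in it, at 52.6 against 96.6 to 108. Without that library 21 members were tested and none was called in edgeR (0.801% of all genes). In brain at 34 °C none of 22 was called (0.193% of all genes) in edgeR or DESeq2, with 1 at an unadjusted p up to 0.05 in each, and Cyp51 lay apart lower (-0.27).

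**Figure D5:**
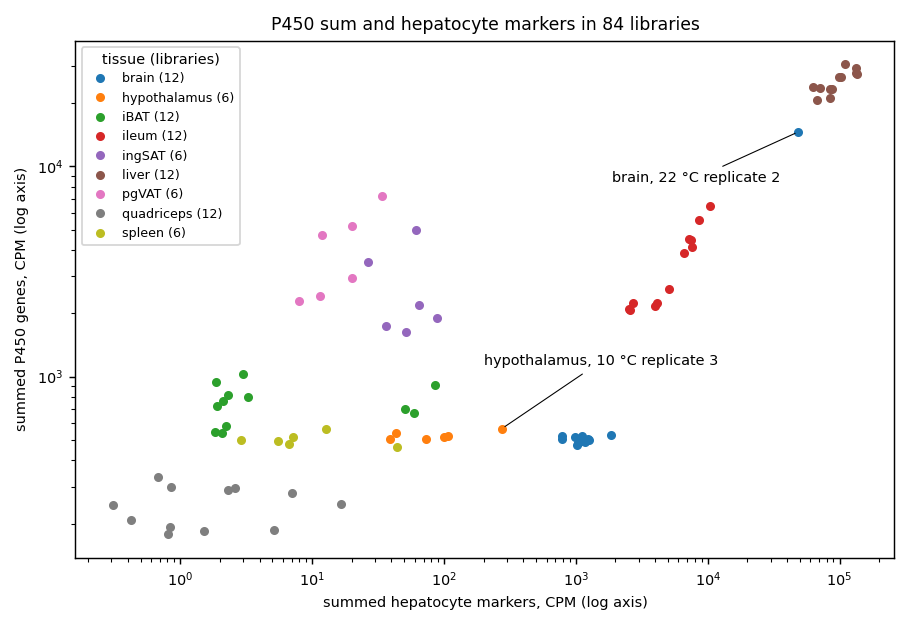
Summed CPM of all P450 genes (vertical) against summed CPM of 5 hepatocyte markers (horizontal) in 84 libraries, both on log axes, coloured by tissue. The brain control with 48783 CPM of hepatocyte markers lies next to the liver libraries, while the fat libraries hold high P450 sums at low hepatocyte markers.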

How the data were processed

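RNA-seq libraries of 9 tissues were analysed. Those of the table of 8 tissues were made with NEBNext Ultra kits and those of the warm arm with TruSeq stranded kits and 50-base single reads, whose counting strand is not given in the sources used here. The quadriceps libraries at 10 °C are in the table of the warm arm and were sequenced at the same site. Their kit is not named explicitly. By its wording, the methods' NEBNext statement for the remaining tissues would cover them, so the pooled quadriceps controls may mix kits. Alignment by the authors used STAR 2.6.0c on mm10, and HTSeq 0.9.1 gave the counts (the submitters' processing notes list STAR 2.5.3a, Picard 1.141 and HTSeq 0.6p1). The deposited raw counts, unscaled whole numbers per gene, were used as they are. The authors' own tests used edgeR's exact test.

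Here, gene identifiers of the table of 8 were given GENCODE M21 symbols (21583 of 21647). Counts were fitted in R 4.3.3 with edgeR 4.0.16 (quasi-likelihood F-test, two-sided, TMM, average log2 CPM of a gene over 0), 1 fit per tissue and arm, with Benjamini-Hochberg adjustment over all genes tested, and tested on simulated data first. Alternatives were DESeq2 1.42.0, edgeR's exact test, library size without TMM, other filters, a replicate block and leaving out each library. RPKM used exon lengths from GENCODE M21. Depth ran from 4262403 to 62880248 counts. Floors cover counting error only. Separate cages are not stated for the libraries of a group, so p-values measure the spread between these pools. The named genes were those called (at most 8 per direction in liver and ileum and 3 elsewhere), the 5 highest in liver and ileum, and the receptor-target and sterol lists. Further members outside this rule, such as Cyp2u1 in ingSAT and Cyp2e1 in brain, are given beside them. The members, lists and limits were chosen with earlier results of these data known. Same-numbered libraries of the table of 8 did not deviate together (correlations from -0.69 to 0.43), so the numbers were not taken as pairs. The fat depots at 34 °C, bone marrow and spinal cord were not analysed here.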

Additional observations from a re-analysis of the deposited data

Results flagged for a closer look

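Among the named genes, 3 pairs of tissues were picked out because every exposed library moved one way in one tissue and the opposite way in the other; none of these differences was tested. At 10 °C, Cyp39a1, an oxysterol hydroxylase, had a log2 fold change of -0.68 in liver and 0.99 in pgVAT, where 2 of 3 cold libraries carried 17294 and 19972 CPM of epididymis markers. With 1 library left out, it was called in 5 of 6 fits in liver but in only 1 of 6 in pgVAT. At 34 °C, Cyp1a1 had 0.80 in liver and 1.06 in quadriceps, against -2.08 in iBAT. The liver value was called in only 2 of 6 fits that left out 1 library, and the quadriceps value was 0.54, not called, without 34 °C replicate 3. In liver and quadriceps Cyp1a1 was a low-count gene, at 0.944 to 1.81 scaled CPM in the 34 °C liver libraries and 1.39 to 3.23 in those of quadriceps. No named gene had a sample far from the others in the only group of more than 3 libraries, the 6 quadriceps controls.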

How the results depend on the processing

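Counts of called P450 genes moved with the threshold, the filter on low counts and single libraries. With an adjusted p under 0.05 in place of the study's limits they were 0 in liver, ileum, pgVAT, spleen, brain, hypothalamus and quadriceps at 10 °C, 3 in ingSAT at 10 °C, 3 in liver at 34 °C, and 0 in ileum and quadriceps at 34 °C, but stayed at 5 in iBAT at 10 °C and went from 4 to 5 in iBAT at 34 °C. A replicate block gave 4 in liver, 2 in pgVAT and 1 in spleen at 10 °C; the numbers did not pair the libraries, and in the other tissues of the cold arm the block kept the count within 1.5 times. No paired analysis was possible for the table of 7 tissues because its columns carry no replicate numbers tied to the labels. edgeR's exact test gave 2 in pgVAT and 1 in spleen. DESeq2 gave 0 in spleen, 4 in brain and 1 in hypothalamus at 10 °C, and 1 and 2 members whose change differed between liver and ileum at 10 °C and 34 °C. Library size without TMM gave 3 in iBAT at 10 °C, and edgeR's own filter gave 4 in brain at 10 °C. Without a filter on low counts there were 7 in ileum, 23 in iBAT, 11 in hypothalamus and 7 in quadriceps at 10 °C, and 8 in iBAT and 1 in brain at 34 °C. Control libraries of quadriceps with the other column prefix alone, an alternative chosen after seeing the data, gave 1 at 34 °C. Fits without any 1 library gave 2 to 10 in liver, 2 to 6 in ileum, 5 to 6 in iBAT, 5 to 7 in ingSAT, 1 to 11 in pgVAT, 0 to 4 in spleen, 0 to 29 in brain, 2 to 4 in hypothalamus and 2 to 4 in quadriceps at 10 °C, and 10 to 16 in liver, 4 to 15 in ileum, 3 to 4 in iBAT, 0 to 1 in brain and 0 to 3 in quadriceps at 34 °C. Of 804 values under the alternatives for the 63 named results that were called, 615 kept their side of the threshold, 189 lost it and 0 changed sign. The cause was not tested. Fits in which a gene fell below the filter gave no value, as for Cyp3a11 in brain without control replicate 2, so losses are undercounted. The alternatives that split quadriceps controls by title code were not run, because the columns carry no such codes. With 3 libraries a group, a gene that was not called may still have differed, most of all below an average of 1 CPM, where no test was made.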

Other observations

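Some genes that serve P450 enzymes, which are no members, passed the adjusted test in fat. Of 9 electron donors and heme genes tested in iBAT at 10 °C, 3 rose and none fell, where 11.4% of all genes passed: the cytochrome b5 of the outer mitochondrial membrane Cyb5b (504, 461 and 376 scaled CPM at 22 °C against 817, 713 and 811, log2 fold change 0.79, adjusted p = 0.0132, edgeR), the b5 reductase Cyb5r3 (0.58) and the heme-binding Pgrmc1 (0.44). In iBAT at 34 °C 3 of 8 passed, where 28.9% of all genes did: Cyb5b fell (468, 472 and 444 against 170, 269 and 188, -1.13, adjusted p = 0.00507) and Por fell (-0.68), whereas Alas1, the first enzyme of heme synthesis, rose (235, 321 and 349 against 605, 683 and 662, 1.12, adjusted p = 0.00357). In ingSAT at 10 °C 1 of 9 passed, Por, where 7.51% of all genes did. Of the regulators, of which 1 of 5 passed in iBAT at 10 °C, 2 of 5 in iBAT at 34 °C and 1 of 8 in ingSAT, the fatty acid receptor Ppara fell in iBAT at 10 °C (324, 402 and 479 against 86.3, 233 and 190, -1.25, adjusted p = 0.0359), rose in iBAT at 34 °C (0.36, adjusted p = 0.0408) and rose in ingSAT at 10 °C (0.84, adjusted p = 0.0327). Rxra fell in iBAT at 34 °C (-0.32). The 2 iBAT comparisons have separate controls, and skeletal muscle markers differed widely among the iBAT libraries, from 2.57 to 8996 CPM.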
